A study of Homo sapiens with 12 samples.

Results

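The experiment described here lowered PRKCI, the gene of the atypical kinase PKC iota, in tumor-initiating cells (TICs) of 4 established lung cancer lines, H1703, H1299, CHAGO and CALU, which the series groups as lung squamous carcinoma. The PRKCI knockdown TIC library of each line was set against the TIC library of the same line, which takes 4 knockdown and 4 TIC libraries, 8 of the 12 libraries in the series. The 8 libraries were chosen by their labels and not by a measured value, although earlier results of these data were known. The other 4 libraries are parental cells of the same lines. They entered the fit to estimate the spread between libraries, and through the line levels they also bear on the fitted values. RNA was sequenced and reads were counted per gene. The labels read here leave unsaid by which means PRKCI was knocked down, what the TIC libraries received as a control and how the TICs were cultured. Each line has 1 library per state, so the line is the replicate (n = 4), and p-values measure the spread between these libraries only.

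Atypical protein kinases C need neither calcium nor diacylglycerol; they are held by PAR6 and PAR3 and switched on by the small GTPase CDC42 to build cell polarity. PRKCI lies on the long arm of chromosome 3 in a segment often gained in squamous lung carcinoma together with SOX2 and ECT2. Work on such tumors has linked the kinase, through SOX2, to HHAT, the acyltransferase that attaches palmitate to Hedgehog ligands, and through ECT2 and RAC1 to MMP10. The comparison asks which TIC transcripts differ when PRKCI is low.

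Levels are given as counts per 1000000 reads (CPM) scaled by trimmed-mean normalization, without correction for gene length, so a level is compared between libraries of 1 gene and not between genes. Values in a set of 4 follow the order H1703, H1299, CHAGO and CALU throughout. Differences are knockdown TIC minus TIC on the log2 scale, so a positive value is higher in knockdown TICs. Fewer cells of a kind and less RNA per cell cannot be told apart in such bulk libraries. The 12 libraries hold 21.2 to 91.8 M counted reads (M, 1000000), with the H1703 and H1299 libraries at 21.2 to 36.1 M and the CHAGO and CALU libraries at 63.8 to 91.8 M, so depth follows the line and not the knockdown. Squamous markers were low outside CHAGO: the 24-gene list summed to 1813 CPM in CHAGO knockdown TICs against 1341 CPM in CHAGO TICs, and to 150.5 to 166 CPM in the other knockdown TICs against 167 to 305 CPM in the other TICs. KRT5 had 0 reads in the knockdown TICs and TICs of H1703 and H1299, and TP63 reached 10 CPM only in CHAGO and in CALU TICs.

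PRKCI itself was lower in every knockdown library. It stood at 58.1, 25.8, 23.2 and 41.5 CPM in knockdown TICs, against 342, 199, 608 and 237 CPM in TICs. All 4 knockdown libraries lay under all 4 TIC libraries, and the lowest TIC value (H1299) was more than 3 times the highest knockdown value (H1703). The level left in knockdown TICs was 17% of that in TICs for H1703, 13% for H1299, 3.82% for CHAGO and 17.5% for CALU. PRKCI averaged 37.2 ± 16.1 CPM in knockdown TICs and 346 ± 185 CPM in TICs (SD, n = 4 each). The fitted log2 fold change was -3.15 ± 0.37 (SE), with an adjusted p of 0.0489 in edgeR's quasi-likelihood test and 3.37e-13 in DESeq2. The edgeR call sits close to the 0.05 threshold: without H1703, H1299, CHAGO or CALU the adjusted p was 0.412, 0.558, 0.0505 and 0.573 in that order, while the fitted value stayed between -3.38 and -2.65.

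**Figure D1:**
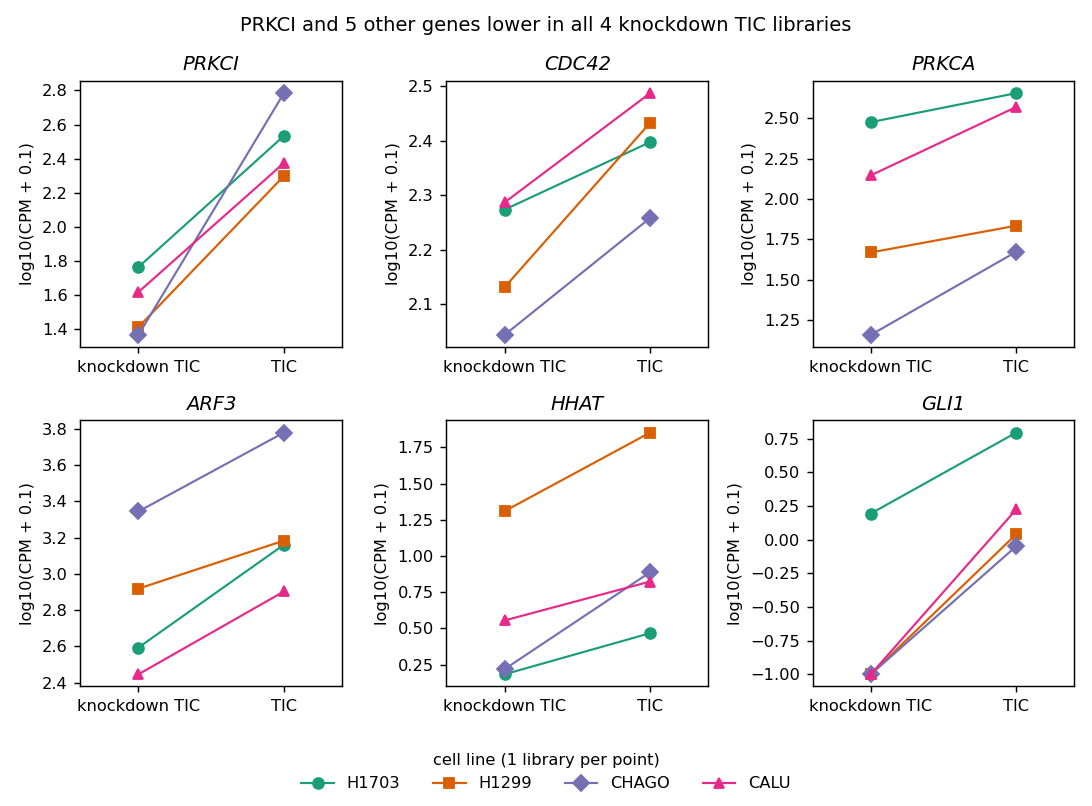
Levels of 6 genes on a log10(CPM + 0.1) axis in knockdown TICs (left) and TICs (right); each point is 1 library and each line joins the 2 libraries of a cell line. All 6 genes were lower in the knockdown library of all 4 lines, and PRKCI and GLI1 are the genes shown whose knockdown and TIC values lie furthest apart in CHAGO.

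Beyond PRKCI the test called very little. Of 22506 genes listed, 14008 had enough reads to test. At an adjusted p under 0.05 edgeR called 2 genes, 0.0143% of those tested: MMP3 higher and PRKCI lower. At an unadjusted p under 0.05 it listed 600 genes (4.28%), 292 higher and 308 lower, fewer than the 700.4 that uniformly spread p-values would give. DESeq2 called 11 genes (0.0785%), 4 higher (0.0286%) and 7 lower (0.05%). The spread left after the line term was wide, with a biological coefficient of variation of 69.9% over the 12 libraries. With 4 pairs an exact paired permutation test of a single gene cannot go below 0.125, so no such p is given.

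Agreement in direction between the 4 lines was a weaker filter. The difference had 1 sign in 4 of 4 lines for 1013 genes that were higher (7.23%) and 1000 that were lower (7.14%) in knockdown TICs. Random signs would also agree in 4 of 4 lines for some genes, and no test was run against that share. It was at least 1 on the log2 scale in 4 of 4 lines for 40 higher genes (0.286%) and 46 lower genes (0.328%). All 4 knockdown libraries lay above all 4 TIC libraries for 48 genes (0.343%) and below them for 59 genes (0.421%). The differences of the lines had little in common. Among 10202 genes the differences of any 2 lines correlated at a Pearson r of 0.0101 to 0.10, which describes genes within these libraries and carries no test. With 1 library per state in each line, a response particular to a line and spread between libraries cannot be told apart. Among genes of at least 10 CPM in a line, those past a 2-fold difference made up 21.5% for H1703, 21.6% for H1299, 10.2% for CHAGO and 18.7% for CALU.

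Partners of PRKCI in the polarity complex gave no further call. CDC42, the GTPase that activates the PAR6-bound kinase, measured 188, 135, 110.4 and 194 CPM in knockdown TICs, against 249.8, 271, 181 and 307 CPM in TICs. Every pair showed the knockdown library below its TIC library, although the groups overlap, and the fitted log2 fold change of -0.71 ± 0.18 did not pass (adjusted p = 0.98 in edgeR, 0.182 in DESeq2). PRKCZ, the closest relative of PRKCI, measured 4.48, 11.7, 7.35 and 7.54 CPM in knockdown TICs, against 3.24, 6.13, 16.1 and 11.1 CPM in TICs. PRKCZ was higher in H1703 and H1299 and lower in CHAGO and CALU. Of 17 tested genes of the complex, 7 had a fitted value above 0 and 10 below, with a median of -0.06 against -0.01 over all tested genes. That median turned positive without H1703 (0.053), CHAGO (0.011) or CALU (0.038). PRKCI was the 1 called among them.

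PARD6B, a PAR6 adaptor that binds the kinase, measured 6.64, 27.5, 207 and 109 CPM in knockdown TICs, against 11.4, 16.3, 125 and 50.7 CPM in TICs. It was higher in 3 lines and lower in H1703. PARD3, the scaffold at the other end of the complex, measured 114, 58.4, 299 and 107 CPM in knockdown TICs, against 143, 77.1, 268 and 77.4 CPM in TICs, with 2 lines each way. SQSTM1, which binds atypical kinases C in NF-kB signaling, measured 843, 662, 286 and 875 CPM in knockdown TICs, against 732, 525, 287 and 860.2 CPM in TICs, close in every pair. Further members had 1 direction at small size: MPP5 and INADL, scaffolds of the neighboring Crumbs complex, were higher in 4 of 4 lines with fitted values of 0.23 and 0.34, and DLG1 was lower in 4 of 4 at -0.31. None of these 3 passed the test in edgeR or DESeq2.

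Among the other protein kinases C, the conventional isoform PRKCA stood at 299.9, 46.6, 14.3 and 140.3 CPM in knockdown TICs, against 454, 68.3, 47.1 and 372 CPM in TICs. Each knockdown library was lower than its own TIC library, while the groups overlap. The fitted log2 fold change was -1.05 ± 0.28 with an adjusted p of 0.98 in edgeR and 0.186 in DESeq2. Of 13 tested members of the kinase family, 8 had fitted values below 0 and 3 were lower in 4 of 4 lines, namely PRKCI, PRKCA and PKN2. PRKCD, an isoform that needs diacylglycerol but no calcium, measured 14.1, 8.96, 8.21 and 7.89 CPM in knockdown TICs, against 15.2, 12.6, 17.1 and 7.8 CPM in TICs. PRKCD was lower in 3 lines and nearly level in CALU. PRKCB had 0 reads in all 4 knockdown libraries and, among TICs, was counted in H1703 alone.

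Hedgehog genes were examined by role. No read of SHH, IHH or DHH, the ligands, was counted in any of the 8 libraries, and the limit this sets runs from 0.0362 CPM in CALU TICs to 0.135 CPM in H1703 TICs (3 reads; counting error only). HHAT, the enzyme that acylates those ligands, measured 1.43, 20.3, 1.56 and 3.49 CPM in knockdown TICs, against 2.84, 71, 7.63 and 6.57 CPM in TICs. It was lower in all 4 knockdown libraries than in their own TICs, by 1.99-fold (H1703), 3.50-fold (H1299), 4.90-fold (CHAGO) and 1.88-fold (CALU), while the groups overlap; H1299 had the highest HHAT level in both. The fitted log2 fold change was -1.53 ± 0.44 with an unadjusted p of 0.00581, and it did not pass over all genes (adjusted p = 0.98 in edgeR, 0.138 in DESeq2). In parental cells HHAT measured 1.02, 18.5, 1.91 and 4.76 CPM.

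GLI1, the Hedgehog transcription factor that is also a standard target of the pathway, measured 1.47, 0, 0 and 0 CPM in knockdown TICs, against 6.17, 1, 0.795 and 1.58 CPM in TICs. The underlying reads were 38, 0, 0 and 0 in knockdown TICs, against 137, 31, 65 and 131 in TICs. GLI1 was thus counted in the TICs of all 4 lines and, after knockdown, in H1703 alone. A count of 0 allows up to 0.132 CPM in H1299, 0.0396 CPM in CHAGO and 0.0423 CPM in CALU knockdown TICs. Parental cells held 3.64, 0, 0 and 0 CPM. GLI1 did not pass the test (unadjusted p = 0.00195, adjusted p = 0.98 in edgeR, 0.119 in DESeq2).

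The other pathway members varied in direction between lines. PTCH1, the ligand receptor and another standard target, measured 29.5, 22.2, 21 and 25.3 CPM in knockdown TICs, against 5.58, 72.2, 27.7 and 16.3 CPM in TICs. PTCH1 was higher in knockdown TICs of H1703 and CALU and lower in those of H1299 and CHAGO, with a fitted log2 fold change of 0.18 ± 0.58 (adjusted p = 0.993 in edgeR). The fitted value turned to -0.53 without H1703. SMO, the transducer under PTCH1, measured 5.37, 1.85, 0.172 and 0 CPM in knockdown TICs, against 15.8, 5.55, 0 and 0 CPM in TICs, so it was lower in the 2 lines that express it.

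GLI2 measured 1.51, 0.662, 2.58 and 5.23 CPM in knockdown TICs, against 6.98, 0, 0.391 and 8.62 CPM in TICs. It was lower in H1703 and CALU and higher in H1299 and CHAGO. GLI3, the main repressor form, measured 0, 28.8, 30.4 and 43.6 CPM in knockdown TICs, against 0, 33.1, 30.2 and 65.1 CPM in TICs, and SUFU, which holds GLI proteins inactive, measured 23, 25.8, 3.67 and 8.23 CPM in knockdown TICs, against 19.5, 26.3, 8.54 and 34 CPM in TICs. Both were at about the same level in the H1299 pair and lower in CALU. HHIP, a decoy receptor, stayed under 5 CPM in all 8 libraries. Of 19 tested transducers, 15 had fitted values below 0 (median -0.30 against -0.01 over all tested genes, and -0.18 without CALU), 3 were lower and 1 higher in 4 of 4 lines, and none passed in edgeR or DESeq2. The higher member was BTRC, a ubiquitin ligase adaptor that acts on GLI proteins, at 232, 84.7, 87.8 and 64.4 CPM in knockdown TICs, against 95.5, 61.4, 55.4 and 56.2 CPM in TICs (fitted 0.64 ± 0.24, adjusted p = 0.98 in edgeR).

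SOX2, the lineage factor encoded near PRKCI, measured 1.04, 6.09, 2.35 and 0 CPM in knockdown TICs, against 3.38, 38.8, 5.57 and 0 CPM in TICs. It was lower in the 3 lines that express it and at 0 in CALU; the fitted log2 fold change was -1.95 ± 1.38 (adjusted p = 0.98 in edgeR). ECT2, a guanine nucleotide exchange factor, measured 307, 281, 1032 and 316 CPM in knockdown TICs, against 339.8, 168, 1082 and 249 CPM in TICs, lower in 2 lines and higher in 2. Of 13 tested stem cell and TIC markers, 4 had fitted values above 0 and 9 below. Their median was -0.27, against -0.01 over all tested genes, and it was 0.14 without CALU. By line the list median was 0 for H1703, 0.14 for H1299, 0 for CHAGO and -0.90 for CALU. ALDH1A3, an aldehyde dehydrogenase used to mark such cells, measured 16.52, 1.37, 17.2 and 990.3 CPM in knockdown TICs, against 14.5, 0, 5.64 and 274 CPM in TICs, higher in all 4 lines. CD44, the hyaluronan receptor, measured 0, 618, 2.8 and 2347 CPM in knockdown TICs, against 0, 987, 0.0612 and 4388 CPM in TICs. CD44 was lower in H1299 and CALU, the lines that carry it. Its fitted log2 fold change was nevertheless above 0 at 1.19 (adjusted p = 0.98 in edgeR), and it was -0.79 without CHAGO.

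Among genes lower in 4 of 4 lines, the smallest p-value after PRKCI belonged to ARF3, a small GTPase of Golgi trafficking. ARF3 measured 392, 828, 2211 and 279 CPM in knockdown TICs, against 1449, 1526, 6027 and 799 CPM in TICs. Each knockdown library held less than its own TIC library, while the groups overlap; CHAGO had the highest ARF3 level in both. The fitted log2 fold change was -1.40 ± 0.24; DESeq2 called it (adjusted p = 0.00248) and edgeR did not (0.713).

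GNAI2, an inhibitory G protein alpha subunit, measured 98.2, 58.7, 10.4 and 68.6 CPM in knockdown TICs, against 149, 173, 38.9 and 145 CPM in TICs. EXT2, a polymerase of heparan sulfate, measured 10.3, 40.7, 21.7 and 133 CPM in knockdown TICs, against 31.5, 115, 44 and 183 CPM in TICs. TRIB2, a pseudokinase of the Tribbles family, measured 0, 2.03, 3.87 and 51.7 CPM in knockdown TICs, against 1.17, 10.1, 13.7 and 175 CPM in TICs. All 3 were lower in every pair with overlapping groups, and all 3 were called by DESeq2 (adjusted p = 0.0242, 0.0405 and 0.024 in that order) and not by edgeR (0.98 each). TRIB2 in parental cells stood at 0.109, 0.546, 2.99 and 23.5 CPM.

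The remaining genes of that set were CKAP4, a membrane protein of the endoplasmic reticulum (fitted -0.85 ± 0.20), PPIP5K2, an inositol pyrophosphate kinase (-0.91 ± 0.22), CD59, which blocks the complement membrane attack complex (-0.66 ± 0.17), and PTMS, a small acidic nuclear protein (-0.86 ± 0.23). CKAP4 measured 55.7, 25.1, 37.9 and 225 CPM in knockdown TICs, against 141, 41.7, 73.3 and 298 CPM in TICs. CD59 measured 145, 601, 283 and 1209 CPM in knockdown TICs, against 253, 1019, 312 and 2262 CPM in TICs, and its smallest difference was in CHAGO. None of these 4 passed in either tool.

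Among genes higher in 4 of 4 lines, WDR35 had the smallest p. WDR35, a subunit of the intraflagellar transport complex of cilia, measured 107, 117, 50.5 and 179 CPM in knockdown TICs, against 57.6, 80.2, 20.1 and 75.2 CPM in TICs. Every pair pointed upward with overlapping groups, the fitted log2 fold change was 1.01 ± 0.20, and DESeq2 called it (adjusted p = 0.0223) where edgeR did not (0.98). DUSP16, a phosphatase of stress-activated MAP kinases, measured 316, 190.2, 112 and 133 CPM in knockdown TICs, against 170.0, 91.9, 55.6 and 50.8 CPM in TICs (fitted 1.10 ± 0.28). ZNF828, a zinc finger protein of chromosome alignment, measured 70.3, 35.5, 78.2 and 57.9 CPM in knockdown TICs, against 31.9, 24.1, 29.7 and 14.9 CPM in TICs, where the knockdown libraries lay above all TIC libraries.

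The noncoding MGC16142 measured 5.56, 28.6, 6.4 and 5.04 CPM in knockdown TICs, against 0.27, 0.226, 0.844 and 0.278 CPM in TICs. The groups do not overlap, TIC levels were under 1 CPM in all 4 lines, and DESeq2 called the gene (adjusted p = 0.00464; edgeR 0.98). CD83, an immunoglobulin-family protein known from antigen-presenting cells, measured 0.425, 20.7, 28.8 and 11.6 CPM in knockdown TICs, against 0.18, 1.32, 8.53 and 1.52 CPM in TICs. It was higher in every pair, with H1703 near the detection limit.

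Smaller differences in 1 direction were held by NOL9, a nucleolar kinase of ribosomal RNA processing (fitted 0.93 ± 0.23), AASDHPPT, a phosphopantetheinyl transferase (0.60 ± 0.15), SMAD5, a transducer of BMP signals (0.55 ± 0.14), ERAP1, a peptidase that trims peptides for class I molecules (0.89 ± 0.23), and TXNDC9, a thioredoxin-domain protein (0.97 ± 0.25). SMAD5 measured 423, 254, 547 and 402 CPM in knockdown TICs, against 337, 171, 322 and 274 CPM in TICs. AASDHPPT measured 95.3, 194, 191 and 198 CPM in knockdown TICs, against 56.4, 126, 140.2 and 131 CPM in TICs. Neither these nor DUSP16, ZNF828 or CD83 passed in edgeR or DESeq2.

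**Figure D2:**
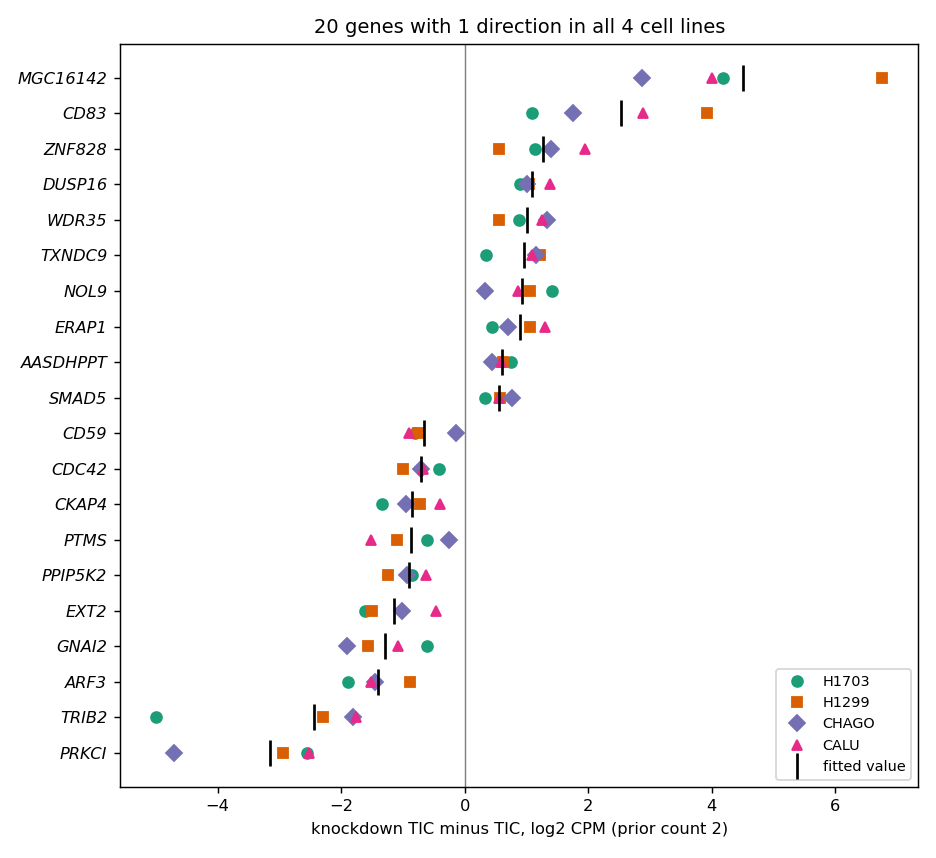
Knockdown TIC minus TIC in log2 CPM (horizontal axis) for the 10 higher and 10 lower genes of smallest p among genes with 1 direction in 4 of 4 lines and a mean log2 CPM of at least 2. Symbols are the 4 lines and the bar is the fitted value; TRIB2 in H1703 stands apart at -4.99, and PRKCI in CHAGO lies left of the other lines. The genes were picked for 1 direction, so the direction itself is no result.

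Some genes differed more than 2-fold in every line, most of them at low levels. LRP4, a receptor for agrin and a Wnt modulator, measured 0.116, 0.132, 0 and 0.0705 CPM in knockdown TICs, against 1.13, 1.23, 1.28 and 5.31 CPM in TICs. RAB3A, a GTPase of regulated secretion, measured 0, 0, 0.106 and 0.789 CPM in knockdown TICs, against 0.675, 1.42, 1.97 and 8.15 CPM in TICs, and EDIL3, a secreted integrin ligand, measured 0, 1.85, 3.58 and 4.79 CPM in knockdown TICs, against 9.72, 31.1, 18.8 and 119 CPM in TICs. The groups do not overlap for LRP4 and EDIL3 and do for RAB3A, and CALU had the highest TIC level in all 3.

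In the other direction ACTR5, a subunit of the INO80 chromatin remodeler, measured 6.95, 6.18, 15.8 and 10.4 CPM in knockdown TICs, against 0.81, 0, 2.24 and 1.53 CPM in TICs. PLEKHH1, a pleckstrin-homology protein, measured 2.43, 44.3, 3.99 and 4.9 CPM in knockdown TICs, against 0.09, 7.49, 0.208 and 0 CPM in TICs, and BSN, a scaffold of presynaptic zones, measured 26, 23.7, 1.16 and 0.747 CPM in knockdown TICs, against 1.35, 3.16, 0 and 0.0724 CPM in TICs. ACTR5 showed no overlap between groups, whereas PLEKHH1 and BSN did. PLEKHH1 was called by DESeq2 (adjusted p = 0.0307). CCRL1 and the unnamed LOC100128292 (lower) and C14orf50 and BTN2A3 (higher) also met the size rule, all under 4 CPM in the 8 libraries. None of them passed in edgeR.

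The other DESeq2 calls rested on fewer lines. GLB1L2, a galactosidase-like gene, measured 2.59, 1.99, 3.09 and 0 CPM in knockdown TICs, against 19, 12.9, 25.9 and 0 CPM in TICs, lower in the 3 lines that express it (adjusted p = 0.0242). FAM70A measured 0.656, 5.21, 1.41 and 2.09 CPM in knockdown TICs, against 0, 0, 0 and 3.07 CPM in TICs, counted in 3 knockdown libraries whose TICs had 0 reads and slightly lower in CALU (adjusted p = 0.0242). POPDC2 was counted in H1299 TICs alone, at 5.81 CPM, and had 0 reads in the other 7 libraries, so its call (adjusted p = 9.64e-05) is that of a single library.

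MMP3, a secreted metalloproteinase of the matrix (stromelysin), was the called gene that was higher. It measured 0.309, 0.0441, 0 and 417 CPM in knockdown TICs, against 0, 0, 0 and 1 CPM in TICs. Reads numbered 8, 1, 0 and 29618 in knockdown TICs, against 0, 0, 0 and 83 in TICs, so the level sits in CALU knockdown TICs and the groups overlap at 0. The adjusted p was 0.0154 in edgeR and 0.785 in DESeq2; in edgeR it was 0.163 without H1703, 0.243 without H1299 and 1 without CALU.

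Among lists with at least 5 tested genes, the median furthest from 0 in a single line was that of cytokine and NF-kB target genes in CALU, whose levels were far higher in its knockdown TICs. IL8 (CXCL8), a neutrophil chemokine, was at 6539.7 CPM in knockdown TICs, against 114 CPM in TICs in CALU (57.6-fold). PTGS2, the inducible prostaglandin synthase, was at 10138 CPM in knockdown TICs, against 124 CPM in TICs (81.7-fold), and CXCL1, a related chemokine, at 3470.2 CPM in knockdown TICs, against 52.6 CPM in TICs (66.0-fold). IL6 reached 497 CPM in knockdown TICs, against 8.48 CPM in TICs (58.7-fold), CCL20 592 CPM in knockdown TICs, against 2.97 CPM in TICs, and IL1B 1790.0 CPM in knockdown TICs, against 214 CPM in TICs (8.38-fold). These ratios compare 1 library with 1 library and have no replicate check.

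The same genes behaved differently in the other lines. In CHAGO, IL8 was at 78.5 CPM in knockdown TICs, against 30.1 CPM in TICs and IL6 at 119 CPM in knockdown TICs, against 45.8 CPM in TICs, which is higher by 2.61-fold and 2.59-fold. In H1703, IL8 had 0 reads in knockdown TICs, against 4.41 CPM in TICs, and CXCL1, IL6 and IL1B had 0 reads in both. H1299 showed PTGS2 at 10.4 CPM in knockdown TICs, against 2.2 CPM in TICs and BIRC3, an apoptosis inhibitor induced by NF-kB, at 443 CPM in knockdown TICs, against 137 CPM in TICs. IL1A was lower in H1299, at 0.177 CPM in knockdown TICs, against 2.23 CPM in TICs (4 against 69 reads). Of the 24 tested genes of the list, 14 were higher and 9 lower in that line.

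Over the 24 tested genes of the NF-kB and cytokine list, H1703 had a median difference of -0.27, H1299 of 0.21, CHAGO of 0.51 and CALU of 2.54, against 0 for all tested genes in each line. All 24 were higher in CALU, 15 in CHAGO, 14 in H1299 and 4 in H1703. The fitted values were above 0 for 23 of 24, with a median of 0.59 against -0.01 over all genes, and without CALU that median was -0.03, against 0.99 to 1.16 without any other line. None of the 24 passed in edgeR or DESeq2. The list was drawn up with earlier results of these data known, so these counts describe the list. RELA and NFKB1, the transcription factor subunits, were higher in CALU by smaller factors: RELA was at 47.9 CPM in knockdown TICs, against 35.3 CPM in TICs and NFKB1 at 58.5 CPM in knockdown TICs, against 29.3 CPM in TICs, while the feedback inhibitor NFKBIA was at 273 CPM in knockdown TICs, against 97.2 CPM in TICs.

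Further CALU genes stood beside them. SERPINB2, an inhibitor of plasminogen activators, was at 5996 CPM in knockdown TICs, against 131 CPM in TICs (45.6-fold), PI3, the elastase inhibitor elafin, at 1398 CPM in knockdown TICs, against 1.96 CPM in TICs, and CSF3, a granulocyte growth factor, at 202 CPM in knockdown TICs against 1 read in TICs. Leukocyte RNA was looked for with 12 marker genes. PTPRC, CD3E, LYZ and NKG7 had 0 reads in both CALU libraries, and the summed level of the list, nearly all of it CD68, was 251 CPM in CALU knockdown TICs against 275 CPM in CALU TICs.

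Promoters of 5 of these CALU genes are shown because the genes were high together in 1 library; each window runs from 250 bases before to 50 after the annotated start, from RefSeq on GRCh38.p14. Capitals mark matches, on either strand, to 3 motifs. GGNNTTTCC stands for an NF-kB-like site. TGACTCA is the core of an AP-1 site. The letters of a TATA box are TATAAA. No match of 1 motif overlaps another in these windows.
CXCL1 (chr4:73869143-73869442, plus strand): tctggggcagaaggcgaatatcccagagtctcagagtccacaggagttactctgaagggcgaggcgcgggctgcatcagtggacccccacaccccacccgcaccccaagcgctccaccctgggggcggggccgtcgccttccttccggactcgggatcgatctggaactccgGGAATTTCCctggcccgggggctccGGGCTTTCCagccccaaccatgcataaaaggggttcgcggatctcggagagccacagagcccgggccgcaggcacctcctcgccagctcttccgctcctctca
CXCL8 (chr4:73740319-73740618, plus strand): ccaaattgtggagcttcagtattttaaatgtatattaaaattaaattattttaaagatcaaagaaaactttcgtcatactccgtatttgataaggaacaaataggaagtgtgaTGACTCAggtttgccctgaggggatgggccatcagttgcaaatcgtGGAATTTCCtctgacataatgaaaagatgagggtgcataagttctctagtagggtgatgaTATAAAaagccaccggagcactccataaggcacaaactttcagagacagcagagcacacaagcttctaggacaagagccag
IL6 (chr7:22726950-22727249, plus strand): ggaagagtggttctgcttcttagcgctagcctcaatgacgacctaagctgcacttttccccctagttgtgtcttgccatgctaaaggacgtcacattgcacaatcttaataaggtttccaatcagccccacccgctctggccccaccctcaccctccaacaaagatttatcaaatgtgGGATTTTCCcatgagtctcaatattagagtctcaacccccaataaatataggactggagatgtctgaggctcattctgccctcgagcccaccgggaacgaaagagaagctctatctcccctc
PTGS2 (chr1:186680374-186680673, minus strand): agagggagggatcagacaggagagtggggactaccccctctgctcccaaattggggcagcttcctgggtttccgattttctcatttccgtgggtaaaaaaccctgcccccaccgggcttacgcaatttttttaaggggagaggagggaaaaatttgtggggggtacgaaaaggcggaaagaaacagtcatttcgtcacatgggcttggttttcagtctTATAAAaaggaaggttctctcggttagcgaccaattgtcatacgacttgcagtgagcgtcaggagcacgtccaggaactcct
MMP10 (chr11:102780579-102780878, minus strand): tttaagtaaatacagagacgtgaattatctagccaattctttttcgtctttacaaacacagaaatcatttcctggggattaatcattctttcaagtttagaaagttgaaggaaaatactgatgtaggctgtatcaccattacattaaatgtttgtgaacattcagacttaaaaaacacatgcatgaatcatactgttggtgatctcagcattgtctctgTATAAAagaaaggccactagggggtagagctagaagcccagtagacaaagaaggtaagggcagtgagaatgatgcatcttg

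CXCL1 holds 2 NF-kB-like matches, starting 78 and 53 bases before the start site. CXCL8 holds 1 such match 91 bases before the start together with an AP-1 match and a TATA box, and IL6 holds 1 at 72 bases before the start. PTGS2 and MMP10 hold the TATA letters only. The NF-kB-like letters occur in 6.26% of 27305 RefSeq promoters of this length, AP-1 in 4.92% and TATA in 11.95%. Of the 31 genes of the NF-kB and cytokine list, 24 matched a promoter in the table and 16 of those (66.7%) hold the NF-kB-like letters; the list was drawn up from known NF-kB targets, so this describes the list. A match is a stretch of letters and was not tested for binding.

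**Figure D3:**
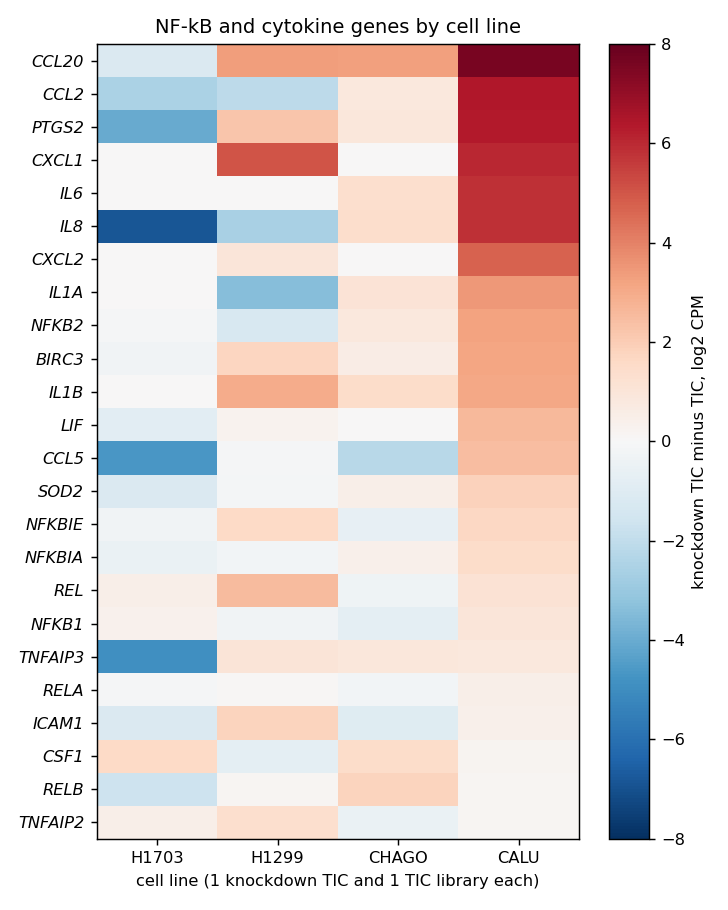
Knockdown TIC minus TIC in log2 CPM (color, prior count 2) for the 24 tested genes of the NF-kB and cytokine list (rows, ordered by their CALU value) in each cell line (columns). The CALU column is above 0 in every row, while H1703 is below 0 in 15 of 24; dark cells in H1703 and H1299 include genes counted with a few reads only.

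Among metalloproteinases, MMP10 (stromelysin-2) measured 10.8, 11.4, 0 and 79.8 CPM in knockdown TICs, against 17, 2.84, 0 and 0.0724 CPM in TICs. It was higher in H1299 and CALU, lower in H1703 and uncounted in CHAGO, and its fitted log2 fold change of 4.35 ± 2.50 did not pass (adjusted p = 0.98 in edgeR). MMP1, an interstitial collagenase, measured 0.811, 50.9, 0.648 and 17829.7 CPM in knockdown TICs, against 3.11, 16.8, 0 and 974 CPM in TICs. MMP1 alone made up 1.57% of all reads in the CALU knockdown library. TIMP3, an inhibitor of these enzymes, was at 9.86 CPM in knockdown TICs, against 379 CPM in TICs in CALU (38.4-fold lower) and at 62.5 CPM in knockdown TICs, against 112 CPM in TICs in CHAGO. Of 16 tested members 7 had fitted values above 0 and 9 below, and MMP3 was the 1 called.

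Matrix genes of CALU went the other way. COL1A1, the main fibrillar collagen chain, was at 301 CPM in knockdown TICs, against 1340.1 CPM in TICs (4.45-fold lower), VCAN, a large proteoglycan, at 253 CPM in knockdown TICs, against 1259 CPM in TICs (4.97-fold lower), and POSTN, a matricellular protein, at 0.761 CPM in knockdown TICs, against 57 CPM in TICs (74.9-fold lower). LUM and DCN, small leucine-rich proteoglycans, ran opposite, with LUM at 34.8 CPM in knockdown TICs, against 2.73 CPM in TICs and DCN at 25.5 CPM in knockdown TICs, against 1.32 CPM in TICs. Of 25 tested matrix genes 21 were lower in CALU, where the list median was -1.31, against 0 in each of the other lines. Fibroblast markers share several of these genes: their 9-gene sum was 519 CPM in CALU knockdown TICs against 1618 CPM in CALU TICs, and the part of other cells in this was not tested.

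CHAGO, the line with the fewest differences past 2-fold, showed higher squamous and keratinocyte genes. DSG3, a desmosomal cadherin, was at 30.4 CPM in knockdown TICs, against 6.88 CPM in TICs (4.42-fold), KRT6A, a keratin of activated squamous epithelium, at 43.6 CPM in knockdown TICs, against 20.3 CPM in TICs (2.15-fold), and SERPINB5, or maspin, at 146 CPM in knockdown TICs, against 77.2 CPM in TICs (1.89-fold). SPRR1B and IVL, precursors of the cornified envelope, were at 19.3 CPM in knockdown TICs, against 10.6 CPM in TICs and 6.66 CPM in knockdown TICs, against 0.0367 CPM in TICs. TP63, the squamous master factor, was at 43.9 CPM in knockdown TICs, against 36.2 CPM in TICs in CHAGO but at 2.73 CPM in knockdown TICs, against 45.2 CPM in TICs in CALU (16.52-fold lower). DSG3 and KRT6A had 0 reads in the knockdown TICs and TICs of the other lines. Of the 24 squamous genes listed, 9 had enough reads to test, so genes counted in CHAGO alone may lie outside these counts. Of the 9 tested, 7 were higher in CHAGO and none passed in edgeR or DESeq2. Over all lines 3 had fitted values above 0 and 6 below. Their median was -0.58, and 0.65 with no filter.

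In H1703 and H1299 the largest differences among genes of at least 10 CPM were genes counted in 1 state only. In H1703, ALPK3, a muscle kinase, was at 0 CPM in knockdown TICs, against 38.6 CPM in TICs and FABP3, a fatty acid carrier, at 0 CPM in knockdown TICs, against 25.1 CPM in TICs, while XKRX was at 20.9 CPM in knockdown TICs, against 0 CPM in TICs. In H1299, TP53I11, a p53-induced gene, was at 0 CPM in knockdown TICs, against 24.8 CPM in TICs and SCN4A, a muscle sodium channel, at 22.2 CPM in knockdown TICs, against 0 CPM in TICs. None of these 5 had 1 direction in all 4 lines. CHAGO and CALU leaders included SYNPO2, an actin-bundling protein, at 13 CPM in knockdown TICs, against 0.0734 CPM in TICs in CHAGO, and MGP, a calcification inhibitor, at 0 CPM in knockdown TICs, against 28.4 CPM in TICs in CALU.

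Lists of housekeeping pathways showed small shifts. They too were drawn up with earlier results of these data known, so the counts describe the lists. Of 26 tested lysosome and autophagy genes, 20 had fitted values below 0 (median -0.36) and 9 were lower in 4 of 4 lines, against 7.14% of all tested genes; none passed in edgeR or DESeq2. By line the list median was -0.12 for H1703, -0.16 for H1299, -0.17 for CHAGO and -0.72 for CALU. CTSD, the aspartic protease cathepsin D, measured 14.2, 21.9, 3.54 and 127 CPM in knockdown TICs, against 17.7, 35.9, 9.85 and 363 CPM in TICs (fitted -1.03 ± 0.44, adjusted p = 0.98 in edgeR). LAMP2, a lysosomal membrane protein, measured 319, 432, 285 and 1126 CPM in knockdown TICs, against 451, 527, 303 and 1849 CPM in TICs. Both were lower in every pair, with CALU carrying the widest gap. TFEB, the transcription factor of lysosomal genes, stayed under 1.4 CPM and was lower in 4 of 4 lines.

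Ribosome biogenesis ran the other way: 21 of 24 genes had fitted values above 0 (median 0.23), 5 were higher in 4 of 4 lines against 7.23% of all tested genes, and none passed in either tool. DKC1, which modifies ribosomal RNA, measured 639, 221, 494 and 192 CPM in knockdown TICs, against 461, 147, 391 and 128 CPM in TICs. POLR1B, a subunit of RNA polymerase I, measured 97.9, 49.8, 63.3 and 33.8 CPM in knockdown TICs, against 32.6, 42.6, 45.6 and 25.7 CPM in TICs, so both were higher in every pair. Ribosomal protein transcripts did not follow, since 32 of 35 had fitted values below 0 (median -0.17, -0.29 without H1703 and -0.090 without H1299). H1703 had a list median of 0.10, H1299 of -0.61, CHAGO of -0.02 and CALU of -0.39.

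Of 19 glycolytic genes, 16 had fitted values below 0 (median -0.29). The shift was widest in H1299, where the median was -1.0 and 17 genes were lower. CHAGO went the same way at -0.34 with 16 lower, against medians of 0.17 in H1703 and 0.08 in CALU. The median of fitted values was -0.09 without H1299, -0.19 without CHAGO and -0.50 without H1703. GPI, the phosphoglucose isomerase, was at 403 CPM in knockdown TICs, against 1811 CPM in TICs in H1299, and GAPDH at 300.4 CPM in knockdown TICs, against 682 CPM in TICs. PKM2, listed under the older symbol of the pyruvate kinase gene, was lower in 4 of 4 lines at 131, 183, 249.5 and 296 CPM in knockdown TICs, against 176, 358, 366 and 368 CPM in TICs (fitted -0.57 ± 0.18, adjusted p = 0.98 in edgeR).

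Cell cycle genes differed by line. Of 28 tested G2/M genes, 24 were higher in CALU and 19 in H1299, against 10 in H1703 and 11 in CHAGO, with a median of fitted values of 0.09. That median was 0.24 without H1703, 0.056 without H1299, 0.22 without CHAGO and -0.022 without CALU, so its sign rests on CALU. Of 32 G1/S and replication genes, 23 were higher in CALU and 9 in H1703. CDKN1A, the inhibitor p21, measured 51.8, 153, 73 and 262 CPM in knockdown TICs, against 56.1, 99.5, 41.6 and 41.8 CPM in TICs, higher in 3 lines and slightly lower in H1703. TGFA, a ligand of the EGF receptor, measured 13.4, 30.9, 48.9 and 113 CPM in knockdown TICs, against 3.2, 12.3, 32.1 and 54.2 CPM in TICs, higher in every pair. No gene of these lists passed in edgeR or DESeq2.

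**Figure D4:**
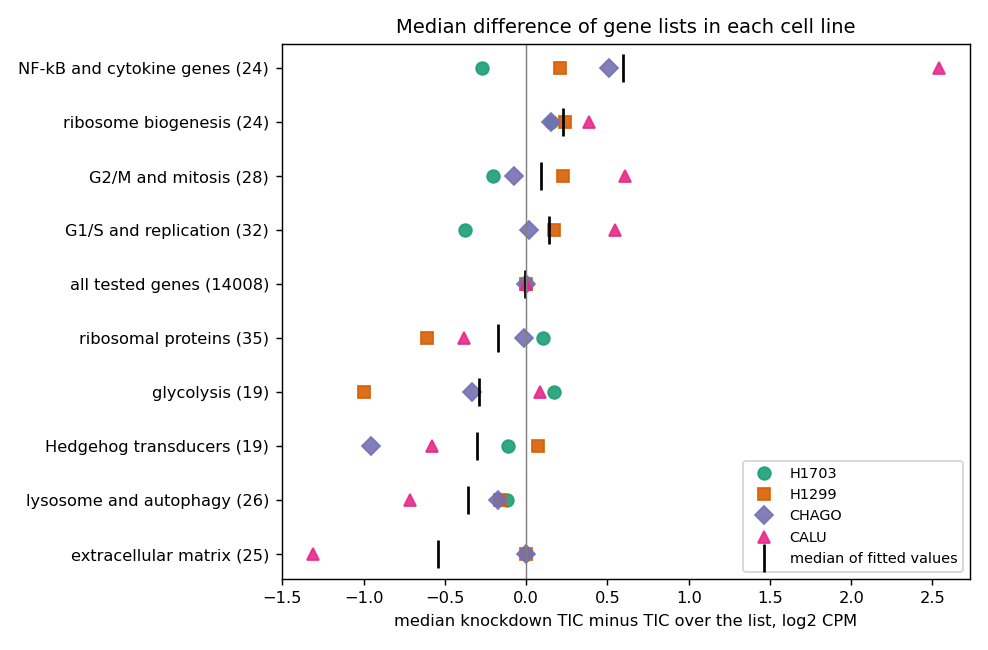
Median knockdown TIC minus TIC in log2 CPM (horizontal axis) over 9 gene lists and over all tested genes (rows, number tested in brackets); symbols are the cell lines and the bar is the median of the fitted values. CALU lies furthest from 0 for the NF-kB and cytokine list (2.54) and the matrix list (-1.31), H1299 for glycolysis (-1.0), and CHAGO for the Hedgehog transducers (-0.96); no test was run over a list.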

How the data were processed

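RNA of 12 libraries was measured by RNA-seq; 8 of them, PRKCI knockdown TICs and TICs of 4 lines, are compared here. Raw read counts per gene and library, whole numbers, were deposited by the authors, per the file headers. The authors also deposited mode-normalized values, a score scaled per library, per the file headers; these entered 1 alternative test only. CASAVA 1.4, TopHat 1.4, HTSeq 0.5.3p3 and build hg19 are named, per the submitters' processing notes; strand use in counting is not given in the sources used here. The counts of the CALU knockdown library stand under a column name 1 letter short of its title, and it was matched because no other title resembles it.

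Counts were tested with edgeR 4.0.16 in R 4.3.3 (filterByExpr, TMM, robust quasi-likelihood fit on all 12 libraries, cell line as block, 6 residual degrees of freedom), two-sided, with Benjamini-Hochberg adjustment at 0.05 over 14008 genes. CPM, log2 differences (prior count 2) and fold changes were computed from those counts. DESeq2 1.42.0 and limma 3.58.1 served as alternatives. The numbers of the lines pair the samples by origin. After each state's mean was subtracted, same-line libraries deviated together (r from 0.624 to 0.760). Those of different lines had r from -0.413 to -0.0888. The subtraction itself pushes the values of different lines below 0, so their sign is no result. Total counts per library ran from 21.2 to 91.8 M (M, 1000000); intervals and floors (3 reads) cover counting error only. On simulated counts the test recovered large changes well but made more wrong calls than its nominal rate.

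Genes named were a fixed set around PRKCI and Hedgehog, every edgeR call, the 10 genes each way of smallest p with 1 sign in 4 lines and mean log2 CPM of at least 2, the 6 each way with the largest smallest line difference among genes past 1 in 4 lines, the 4 most changed each way per line at 10 CPM or more, and up to 4 members of each described list; DESeq2 calls and further list members in single lines were named after their values were seen. The 8 libraries, taken by label, and the 51 lists (974 symbols, 973 found in the table) were chosen with earlier results of these data known. Counts over a list therefore describe its members and are no independent support. Promoters are from RefSeq on GRCh38.p14 and were matched by symbol. None of the 12 libraries is of parental cells with PRKCI knockdown.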

Additional observations from a re-analysis of the deposited data

Results flagged for a closer look

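The 4 lines were searched for 1 library far from the other 3 by Dixon's criterion for 4 values, for each of 96 named genes that were tested. For normally spread values chance marks about 1 in 20 such sets. Some of these genes were named for their values in single lines, and CPM levels are skewed with many zeros. The share of 1 in 20 is therefore no yardstick for the counts below. Levels in CPM stood apart in 70 of 192 sets (36.5%), 33 in knockdown TICs and 37 in TICs, and CALU was the line in 40 of them. In CALU knockdown TICs the CPM values that stood apart were those of MMP3 (417), CKAP4 (225), TRIB2 (51.7), MMP10 (79.8), RAB3A (0.789), MMP1 (17829.7), SERPINB7 (246), CXCL1 (3470.2), CCL20 (592), CTSD (127), VCAN (253), ALDH1A3 (990.3), LOC100128292 (0.31), IL8 (6539.7), PTGS2 (10138), IL1B (1790.0), SERPINB2 (5996), PI3 (1398), COL1A1 (301) and LUM (34.8). In CALU TICs the CPM values that stood apart were those of MMP3 (1.002), TRIB2 (175), FAM70A (3.07), LRP4 (5.31), MMP1 (974), SERPINB7 (3.86), CXCL1 (52.6), CCL20 (2.97), CTSD (363), VCAN (1259), HHIP (4.6), ALDH1A3 (274), PTGS2 (124), IL1B (214), SERPINB2 (131), COL1A1 (1340.1), LUM (2.73), IVL (3.13), SYNPO2 (6.21) and LAMP2 (1849). In CHAGO knockdown TICs the CPM values that stood apart were those of ECT2 (1032), TP63 (43.9), PKN2 (674), TIMP3 (62.5) and ALPK3 (4.29). In CHAGO TICs the CPM values that stood apart were those of ARF3 (6027), MGC16142 (0.844), CD83 (8.53), C14orf50 (0.391), PKN2 (746) and XKRX (6.46). In H1299 knockdown TICs the CPM values that stood apart were those of MGC16142 (28.6), PLEKHH1 (44.3), HHAT (20.3), SCN4A (22.2) and MGP (3.44). In H1299 TICs the CPM values that stood apart were those of PLEKHH1 (7.49), HHAT (71), SOX2 (38.8), POPDC2 (5.81) and GPI (1811). In H1703 knockdown TICs the CPM values that stood apart were those of AASDHPPT (95.3, the lowest), GLI1 (1.47) and BTRC (232). In H1703 TICs the CPM values that stood apart were those of GLI1 (6.17), BTRC (95.5), MMP10 (17), PKM2 (176, the lowest), RELA (77.7) and FABP3 (25.1).

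Since lines differ in level, the within-line log2 differences were searched as well, after the first search had been seen, and 7 of 96 stood apart. They were TRIB2 in H1703 (-4.99, next -2.29), TXNDC9 in H1703 (0.34, next 1.09), GLB1L2 in CALU (0, next -2.68), ACTR5 in H1299 (7.36, next 3.04), CD44 in CHAGO (4.84, next 0), POPDC2 in H1299 (-7.27, next 0) and IVL in CHAGO (6.49, next 0.24). No read was counted for TRIB2 in H1703 knockdown TICs, ACTR5 in H1299 TICs, POPDC2 in H1299 knockdown TICs or GLB1L2 in either CALU library.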

How the results depend on the processing

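The number of genes called moved with the settings. It stayed at 2 with DESeq2 size factors, library totals, no filter, an adjusted p of 0.1 and a log2 fold change of at least 1. In edgeR it was 0 with a filter of 1 CPM in 4 libraries, 0 with no replicate block (no cell line term) and 0 with the 8 compared libraries only; it was 11 in DESeq2, 1 in limma voom and 1 with the mode-normalized values. It was 0 with only H1703 and H1299 or only CHAGO and CALU, and ranged from 0 to 3 when a line or a library was left out. The settings that gave 0 listed 128 to 824 genes at an unadjusted p under 0.05. PRKCI kept a negative log2 fold change in all settings. It lost its call with the 1 CPM filter (-3.15), with no replicate block (-3.22), with the 8 libraries only (-3.15), with H1703 and H1299 only (-2.72) and with CHAGO and CALU only (-3.59). When a line or library was left out, PRKCI ranged from -3.40 to -2.65. Its call was then lost in every case but 1, that without the CHAGO TIC library (adjusted p = 0.023 in edgeR). The count of genes at least 1 apart with 1 sign in all lines, whose alternatives were chosen after seeing the data, was 84 with DESeq2 size factors and 87 with library totals, and 262 to 306 with a line left out, since fewer lines must then agree.

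For 95 other named genes, 106 of 2176 fitted values under 23 settings changed sign or became 0. With no replicate block the sign turned for PTCH1 (-0.31), PARD3 (0.030), SMO (-1.53), GLI2 (-0.68), CD44 (-0.86), NFKB1 (-0.00055) and SCN4A (1.003). With the 8 libraries only the sign turned for SMO (-0.24) and SYNPO2 (-0.23). In DESeq2 the sign turned for COL1A1 (0.014). In limma voom the sign turned for PTCH1 (-0.069), PARD3 (0.077), SMO (-0.91), GLI2 (-0.41) and CD44 (-0.81). With the mode-normalized values the sign turned for SMO (-0.44), IL8 (-0.25), RELA (-0.011) and SCN4A (0.23). With H1703 and H1299 only the sign turned for PRKCZ (0.68), SMO (-1.56), SUFU (0.12), HHIP (2.28), CD44 (-0.68), IL8 (-8.63), PTGS2 (-1.77), RELA (-0.0078), NFKBIA (-0.33), COL1A1 (0.86), SCN4A (11.15) and SYNPO2 (-2.28), and the value was 0 for IL6, SERPINB2, PI3, LUM and IVL. With CHAGO and CALU only the sign turned for PARD3 (0.30), ALPK3 (0.53) and XKRX (-4.14). When a line or library was left out, the sign turned at least once for 22 genes, whose log2 fold changes ran over these ranges: ECT2 -0.075 to 0.54, PTCH1 -0.53 to 0.87, PRKCZ -0.35 to 0.30, PARD3 -0.19 to 0.16, SQSTM1 -0.0092 to 0.35, SMO -1.45 to 2.04, HHIP -5.29 to 1.78, CD44 -0.87 to 2.78, POPDC2 -7.50 to 0.27, IL8 -2.71 to 2.12, PTGS2 -0.35 to 3.91, RELA -0.078 to 0.18, NFKB1 -0.29 to 0.49, NFKBIA -0.32 to 0.98, CD68 -0.50 to 0.65, COL1A1 -1.68 to 0.73, LUM -1.22 to 4.18, IVL -0.048 to 6.81, ALPK3 -7.21 to 0.60, XKRX -0.37 to 6.89, SCN4A -5.90 to 6.28 and SYNPO2 -1.65 to 2.02. MMP3 lost its call in every setting that left out a line or library other than CHAGO and was not tested with the 1 CPM filter. It was also not called with no replicate block, with the 8 libraries only, in DESeq2, in limma voom, with the mode-normalized values or with either pair of lines. TIMP3 was called (adjusted p = 0.023) without the CHAGO TIC library. Of 128 medians of 16 gene lists under other settings, 19 moved by more than the spread between lines. The median turned sign at least once for 10 lists: the polarity complex, matrix, G1/S, G2/M, Hedgehog ligand and receptor, metalloproteinase, NF-kB and cytokine, squamous, and stem cell lists. The cause was not tested. Depth limits GLI1, LRP4, RAB3A and other genes near 1 CPM most in H1703 and H1299.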
